A study of Homo sapiens with 60 samples.

Results

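At 20 µg/mL, the lowest dose at which they were given to A549 cells, the herbal mixtures Yijin-tang and Soshiho-tang differed in 3 genes in the fit of 52 libraries, and all 3 are targets of the aryl hydrocarbon receptor (AHR). CYP1B1, CYP1A1 and TIPARP were lower with Yijin-tang, at 0.667, 0.463 and 0.730 times their level with Soshiho-tang. Of the 3, CYP1B1 stayed called in every alternative fit, whereas CYP1A1 lost its call without any 1 of the compared libraries. Fits of fewer libraries added genes that are not on the AHR list. The 52 libraries fitted without a filter on low counts gave 89 calls, these 3 among them, with EIF3CL ahead of CYP1B1 by p. The comparison rests on 5 of the 60 libraries of the study, 3 of Yijin-tang and 2 of Soshiho-tang, all of 1 set. The libraries were taken by their labelled extract and dose; the comparison itself was proposed with earlier results of these data known, CYP1B1 among them.

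A549 is an established human lung adenocarcinoma line, and the cells were exposed for 24 h. Both mixtures were hot-water extracts, each given at 20, 100 and 500 µg/mL, with 3 libraries per dose of Yijin-tang and 2 per dose of Soshiho-tang. The sample titles place all 60 libraries in batch C. Sets are named here by the first field of the library name, which is 8 for both mixtures. The library names do not say what that field stands for. Vehicle cells (3 libraries, set C1) received DMSO, at 0.1% per the labels and at 2% per the series design text. No DMSO share is given for the extract libraries, and the remaining libraries are of 6 other extracts, all ethanol extracts per the labels. The labels do not say that replicates came from separate cultures, so every p-value reflects variation from library to library that may be technical in origin. Because vehicle was in another set, set and treatment cannot be told apart in any comparison with vehicle, whereas the comparison of the mixtures lies within set 8.

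Yijin-tang is a classical East Asian decoction built on Pinellia tuber and citrus peel, and Soshiho-tang one built on Bupleurum and Scutellaria roots. The composition of the batches used is not given in the labels. AHR is a transcription factor that rests in the cytosol with the chaperones HSP90 and PTGES3 (p23), enters the nucleus when a ligand binds, pairs with ARNT and binds DNA at sites with the core GCGTG. Its best-known targets are the cytochrome P450 genes CYP1A1 and CYP1B1, which oxidise polycyclic aromatic compounds and plant flavonoids, and the negative regulators AHRR and TIPARP, which dampen the receptor. In lung epithelium the pathway answers to smoke, diesel particles and many dietary plant compounds.

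The 3 sequences shown here are promoters of 2 of the genes that differed, CYP1A1 and TIPARP, and of NQO1, a listed target that did not pass the test. They run from 250 bases before to 50 bases after a gene start (RefSeq, GRCh38.p14), 5′ to 3′ on the strand of the gene, with GCGTG on either strand in capitals (on the opposite strand it reads CACGC). The CYP1A1 window is chr15:74725479-74725778 on the minus strand, the TIPARP window chr3:156674340-156674639 on the plus strand, and the NQO1 window chr16:69726511-69726810 on the minus strand.
CYP1A1: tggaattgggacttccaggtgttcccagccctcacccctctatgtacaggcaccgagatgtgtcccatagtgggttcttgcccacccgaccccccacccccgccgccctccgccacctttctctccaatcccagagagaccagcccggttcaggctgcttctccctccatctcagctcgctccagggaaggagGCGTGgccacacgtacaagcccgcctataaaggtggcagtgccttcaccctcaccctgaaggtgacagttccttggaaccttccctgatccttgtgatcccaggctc
TIPARP: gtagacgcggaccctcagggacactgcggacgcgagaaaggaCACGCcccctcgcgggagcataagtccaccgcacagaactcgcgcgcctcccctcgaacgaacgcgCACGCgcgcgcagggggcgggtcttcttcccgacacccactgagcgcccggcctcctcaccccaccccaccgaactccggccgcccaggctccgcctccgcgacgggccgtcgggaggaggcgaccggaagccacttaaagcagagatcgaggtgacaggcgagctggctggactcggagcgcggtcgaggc
NQO1: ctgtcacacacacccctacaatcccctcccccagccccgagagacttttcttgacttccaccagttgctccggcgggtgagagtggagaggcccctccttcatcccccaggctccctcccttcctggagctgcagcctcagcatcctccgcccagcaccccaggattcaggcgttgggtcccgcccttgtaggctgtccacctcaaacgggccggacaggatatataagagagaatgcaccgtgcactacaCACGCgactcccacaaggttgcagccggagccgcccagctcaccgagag
In these windows CYP1A1 had 1 match, TIPARP 2 and NQO1 1, none of them overlapping. The table holds 2 more windows of TIPARP, at other starts, without a match. Of 35116 promoters of this length in the table, 36.5% had at least 1 match and 12.7% had 2 or more, so a match is common and describes only the letters of the window. The AHR-bound enhancer of CYP1A1 lies farther upstream, outside the window. Of the 8 listed AHR targets, 6 were matched to a promoter (5 of them with GCGTG in at least 1 window), and CYP1B1 and ALDH3A1 were not among them.

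Depth was similar in both groups, at 21.9 to 27.8 M counts (M, 1e6) in Yijin-tang low libraries and 24.0 to 25.2 M in Soshiho-tang low libraries. The A549 marker list (EPCAM, keratins and others) had no member of 9 at 0, with a sum of 16304 to 16923 CPM (counts per 1e6 counts, scaled by TMM factors) in Yijin-tang and 16272 to 16386 CPM in Soshiho-tang. Of the markers of other cell types, 1 of 10 fibroblast, 5 of 11 leukocyte, 2 of 8 endothelial, 2 of 11 neural and none of 10 hepatocyte genes were at 0 in all 5 libraries. Their sums overlapped between the mixtures except for hepatocyte markers, at 322.6 to 327.7 CPM in Yijin-tang and 327.9 to 330.6 CPM in Soshiho-tang. FGB and HNF4A, with means of 236 and 90.4 CPM over the 5 libraries (without TMM scaling), held nearly all of that sum. The other hepatocyte markers averaged at most 0.76 CPM each (SERPINA1), and ALB, APOC3 and APOB had at most 1 count in any of the 5. The share of mitochondrially encoded counts was 12.8 to 13.1% in Yijin-tang and 13.3 to 14.3% in Soshiho-tang, without overlap. Soshiho-tang medium replicate 3 and a library of another extract stood apart from the other 58: their values fell with transcript length (slopes of -0.45 and -0.52 log2 units per doubling, against -0.11 to 0.12 in the others). These 2 libraries are not among the 5 compared and were left out of the fit, and the results with them are given with the alternatives.

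With 18228 genes tested by edgeR's quasi-likelihood test over 52 libraries, 3 genes passed the threshold of an adjusted p (Benjamini-Hochberg) under 0.05 and were called, which is 0.0165% of the genes tested. All 3 were lower in Yijin-tang and none was higher. At an unadjusted p below 0.05 there were 782 genes, 427 higher and 355 lower, or 4.29% of the genes tested. The plot of the difference by expression level shows these 3 genes below the band that holds most genes, and a few genes that were not called lie farther from 0.

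**Figure D1:**
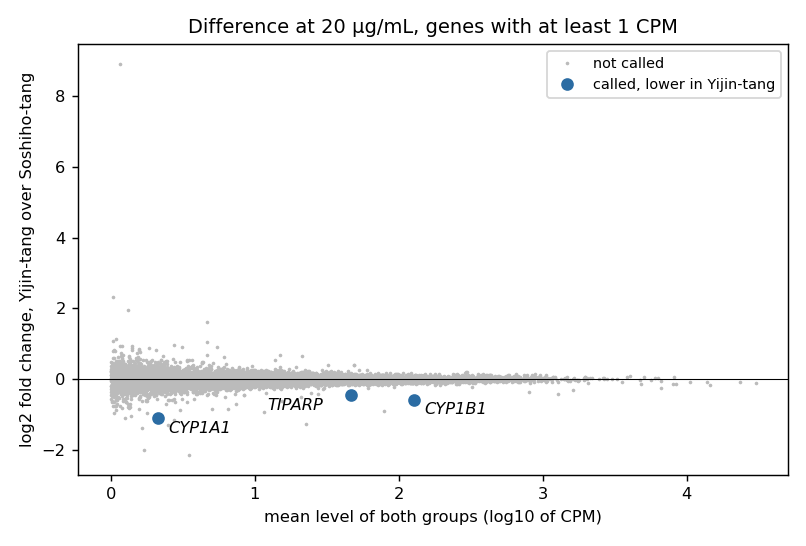
Log2 fold change of Yijin-tang over Soshiho-tang at 20 µg/mL (vertical axis) against the mean level of both groups on a log10 CPM axis, for the 13792 genes with a mean of at least 1 CPM. Blue points are the 3 called genes, CYP1B1, CYP1A1 and TIPARP, all below 0.

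CYP1B1 (ENSG00000138061; chromosome 2, 38066973 to 38109902, minus strand, GRCh38 with GENCODE 29) encodes a P450 found mainly outside the liver, which oxidises oestrogens and aromatic hydrocarbons. Its level was 98.9, 99.9 and 105 CPM in the Yijin-tang low libraries, against 149 and 156 CPM in the Soshiho-tang low libraries. The groups did not overlap, and the gap between them was wider than the range within either. The log2 fold change was -0.59 ± 0.08 (SE; 95% interval -0.74 to -0.43), with an adjusted p of 7.75e-05 by edgeR. Vehicle libraries had 96.3, 92.8 and 93.8 CPM, all under the lowest Yijin-tang library. In RNA of whole cultures, a change in every cell and a change in some of the cells cannot be told apart.

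CYP1A1 (ENSG00000140465; chromosome 15, 74719542 to 74725610, minus strand) is the inducible P450 that serves as the classical readout of AHR. It had 1.40, 1.19 and 1.44 CPM with Yijin-tang, against 2.61 and 3.17 CPM with Soshiho-tang. Its log2 fold change was -1.11 ± 0.21 (95% interval -1.53 to -0.69; edgeR adjusted p 0.0162). Vehicle libraries had 1.06, 1.48 and 0.98 CPM, which overlapped Yijin-tang.

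TIPARP (ENSG00000163659; chromosome 3, 156673235 to 156706770, plus strand) encodes a mono-ADP-ribosyltransferase that is induced by AHR and represses it. It had 39.7, 36.6 and 41.5 CPM with Yijin-tang, against 51.6 and 55.7 CPM with Soshiho-tang. Its log2 fold change was -0.45 ± 0.08 (95% interval -0.62 to -0.29; edgeR adjusted p 0.0162). Vehicle libraries, at 39.9, 37.5 and 39.7 CPM, lay within the Yijin-tang range.

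The call of CYP1B1 held without each of the 5 libraries in turn, at log2 fold changes of -0.62 to -0.55 and adjusted p of 0.000363 to 0.0318. The other 2 calls were less stable: TIPARP lost its call without Yijin-tang replicate 1 or 2 or either Soshiho-tang replicate (adjusted p 0.076 to 0.783) and kept it without Yijin-tang replicate 3. CYP1A1 lost its call without any of the 5 (adjusted p 0.0606 to 0.783) and also with DESeq2 (adjusted p 0.141). The direction of both stayed the same, at -0.51 to -0.40 for TIPARP and -1.24 to -0.96 for CYP1A1. CYP1B1 overlaps RMDN2 on the opposite strand, at 3.42 to 3.93 CPM in Yijin-tang and 2.98 to 3.12 CPM in Soshiho-tang (without TMM scaling), and the strand setting of the counting is not given in the sources used here. TIPARP overlaps TIPARP-AS1, at under 0.4 CPM in each of the 5 libraries, and no gene overlaps CYP1A1 in GENCODE 29.

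The other 4 measured AHR targets were not called. AHRR, which competes with AHR for ARNT, had 5.20, 4.82 and 5.43 CPM with Yijin-tang and 5.77 and 6.22 CPM with Soshiho-tang, without overlap, at a log2 fold change of -0.22 ± 0.13 (edgeR unadjusted p 0.0837). AHRR overlaps PDCD6 on the same strand, at 69.1 to 75.3 CPM in the 5 libraries (without TMM scaling), so its count is uncertain. NQO1, a quinone reductase also driven by NRF2, had 1360, 1414 and 1452 CPM with Yijin-tang and 1397 and 1407 CPM with Soshiho-tang. Its difference was 0.01, with a 95% interval of -0.07 to 0.08, so a change of the size of CYP1B1's lies outside it. ALDH3A1, an aldehyde dehydrogenase, differed by -0.08 (95% interval -0.19 to 0.03). UGT1A6, a glucuronosyltransferase whose exons are shared with other UGT1A genes and whose count is therefore uncertain, had under 2.3 CPM in each of the 5 libraries and an interval of -0.23 to 1.09. CYP1A2 was too low to be tested. Of the 7 targets tested, 3 were called lower and none higher, with a median difference of -0.22, against -0.00 over all genes tested.

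The receptor and its partners had close levels in both groups. AHR itself had 67.1, 65.7 and 69.7 CPM with Yijin-tang and 68.3 and 66.6 CPM with Soshiho-tang, a difference of 0.00 with a 95% interval of -0.25 to 0.25. ARNT differed by -0.02 (-0.15 to 0.10), HSP90AA1 by 0.04 (-0.04 to 0.13), HSP90AB1 by 0.03 (-0.03 to 0.09) and PTGES3 by 0.03 (-0.04 to 0.11). None of these 5 genes was called. The plot of AHR genes sets these intervals beside those at the high dose.

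**Figure D2:**
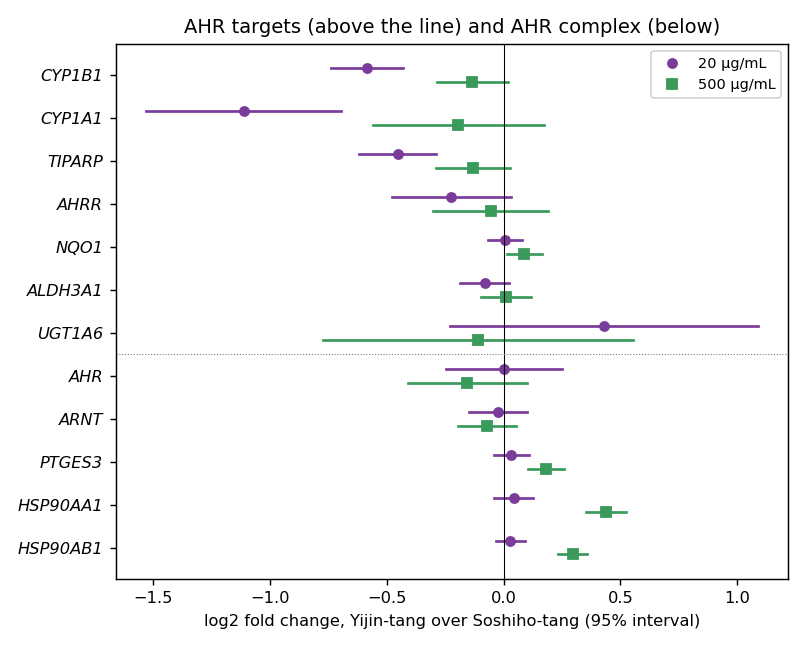
Log2 fold change of Yijin-tang over Soshiho-tang (horizontal axis) with its 95% interval (lines) for 7 AHR targets and 5 genes of the AHR complex, at 20 µg/mL (circles) and 500 µg/mL (squares). At 20 µg/mL the intervals of CYP1B1, CYP1A1 and TIPARP lie below 0, and at 500 µg/mL all 3 include 0.

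Set against vehicle, the 3 genes were called higher with Soshiho-tang low and were not called with Yijin-tang low. CYP1B1 changed by 0.10 ± 0.07 with Yijin-tang (edgeR adjusted p 0.511) and by 0.69 ± 0.08 with Soshiho-tang (adjusted p 5.31e-07). CYP1A1 changed by 0.17 ± 0.21 with Yijin-tang (adjusted p 0.774) and by 1.29 ± 0.20 with Soshiho-tang (adjusted p 0.000141). TIPARP changed by 0.01 ± 0.07 with Yijin-tang (adjusted p 0.983) and by 0.46 ± 0.08 with Soshiho-tang (adjusted p 0.000776). Of the 7 targets tested, none was called with Yijin-tang and 3 were called higher with Soshiho-tang. Over all genes, Yijin-tang low against vehicle gave 658 calls (265 higher, 393 lower; 3.61% of genes tested) and Soshiho-tang low against vehicle 557 (168 higher, 389 lower; 3.06%). Both comparisons use the same 3 vehicle libraries and cross sets, so they are set side by side only. The 3 genes were picked by the difference between these same low-dose libraries, so their values against vehicle are not separate support for it. These counts fell to 26 and 8 when the 2 libraries that stood apart were in the fit, and to 319 to 424 and 124 to 427 when 1 compared library was left out.

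Among the 8 extracts at their low dose, Soshiho-tang had the highest mean level of all 3 genes and Yijin-tang the next. The 3 genes were picked by the difference between these same mixture libraries, so the rank of Soshiho-tang is in part fixed by that choice. The mean of Longan Arillus includes the library that stood apart. The other 6 were ethanol extracts, and the low doses of Polygalae Radix and Aucklandiae Radix were 15.2 and 14.8 µg/mL. Solvent and set, and for those extracts also dose, cannot be told apart from the herb in this ranking. The 14 low-dose libraries of the other 6 extracts, from other sets, had at most 93.3 CPM of CYP1B1, 1.40 CPM of CYP1A1 and 40.0 CPM of TIPARP. Each Soshiho-tang low library was above those values for every one of the 3 genes. Each Yijin-tang low library was above that of CYP1B1. In CYP1A1 (1.19 to 1.44 CPM) and TIPARP (36.6 to 41.5 CPM) the Yijin-tang low libraries overlapped the other extracts.

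Across doses the levels with the 2 mixtures are given here as values, and the tests between doses follow below. With Yijin-tang, CYP1B1 averaged 101 ± 3.46, 125 ± 9.42 and 173 ± 6.68 CPM at 20, 100 and 500 µg/mL (SD, n = 3 each), and the libraries of successive doses did not overlap. With Soshiho-tang it had 149 and 156 CPM at 20 µg/mL, 125 CPM in the library of the 100 µg/mL dose that entered the fit (106 CPM in the library that stood apart), and 178 and 202 CPM at 500 µg/mL. By their labels, the medium dose was thus the lowest of the Soshiho-tang doses; the dose labels were taken as given and could not be checked against the files, and the low-dose difference rests on them. TIPARP had the same order with Soshiho-tang, at 51.6 and 55.7 CPM, then 47.1 CPM (33.1 CPM in the library that stood apart), then 71.1 and 72.0 CPM, against 39.3 ± 2.51, 47.0 ± 3.03 and 65.3 ± 2.42 CPM with Yijin-tang. CYP1A1 had 2.61 and 3.17 CPM, 2.03 CPM (2.02 CPM in the library that stood apart), and 3.28 and 5.07 CPM with Soshiho-tang.

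**Figure D3:**
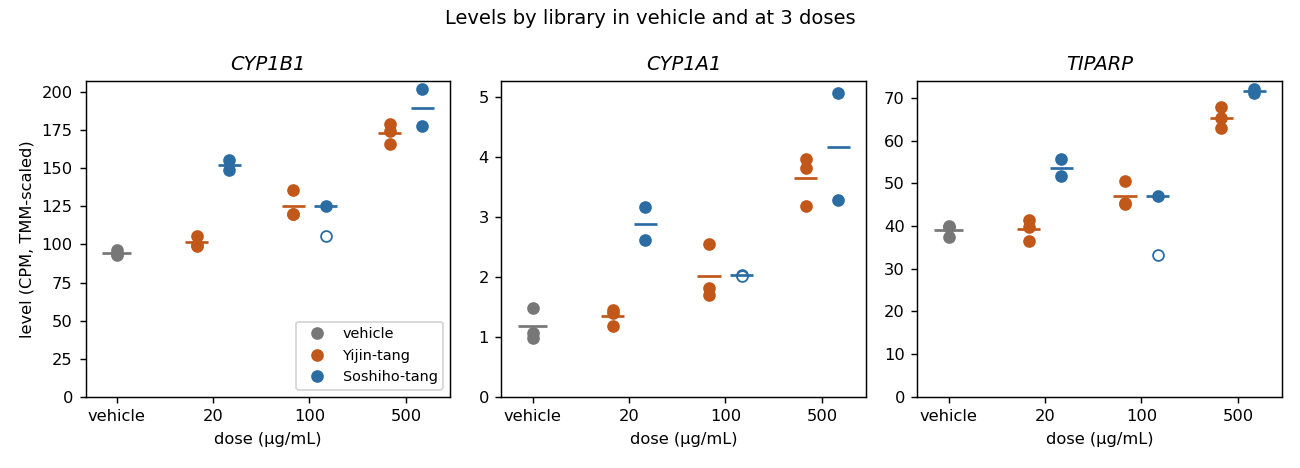
Level in CPM (TMM-scaled) of CYP1B1, CYP1A1 and TIPARP in each library of vehicle and of both mixtures at 20, 100 and 500 µg/mL, with Yijin-tang left of Soshiho-tang at each dose. Lines are means, and the open point is Soshiho-tang medium replicate 3, which stood apart and is not in its mean. At 20 µg/mL both Soshiho-tang libraries are above all Yijin-tang libraries in each panel.

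Both of the following comparisons were added after these values were seen. At 100 µg/mL the log2 difference of Yijin-tang minus Soshiho-tang was -0.00 for CYP1B1 (95% interval -0.20 to 0.19), -0.00 for CYP1A1 (-0.52 to 0.51) and -0.00 for TIPARP (-0.21 to 0.21). None of the 3 intervals reaches the low-dose estimate of its gene. Those estimates carry error of their own and belong to genes picked by their low-dose difference, so they may be too large. The low-dose difference less that at 100 µg/mL was not tested. No gene was called there by edgeR (0% of genes tested; 791 at an unadjusted p below 0.05, and 1 called by DESeq2). Soshiho-tang low minus Soshiho-tang medium was 0.28 ± 0.10 for CYP1B1 (unadjusted p 0.0112), 0.51 ± 0.27 for CYP1A1 (0.0603) and 0.19 ± 0.11 for TIPARP (0.0896). No gene was called there either (0%; 464 at an unadjusted p below 0.05, 1 called by DESeq2), so the order of the 2 doses did not pass the test over all genes. Both added comparisons use 1 Soshiho-tang medium library, which is assumed to vary like the other groups. With the second medium library, which stood apart, in the fit, Soshiho-tang low minus medium was 0.40 for CYP1B1 (unadjusted p 0.000201, adjusted p 0.125), 0.52 for CYP1A1 and 0.42 for TIPARP. Yijin-tang minus Soshiho-tang at 100 µg/mL was then 0.12 for CYP1B1, 0.00 for CYP1A1 and 0.23 for TIPARP.

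At 500 µg/mL the mixtures differed in 1526 genes (706 higher and 820 lower in Yijin-tang; 8.37% of genes tested), and the 3 AHR targets were not among them. CYP1B1 had 166, 179 and 174 CPM with Yijin-tang high and 178 and 202 CPM with Soshiho-tang high, which overlap, at a log2 fold change of -0.13 ± 0.08 (edgeR adjusted p 0.341). CYP1A1 differed by -0.19 ± 0.18 and TIPARP by -0.13 ± 0.08, all 3 in the direction seen at the low dose. The difference at the low dose less that at the high dose was -0.45 ± 0.11 for CYP1B1 (edgeR adjusted p 0.0115), and it did not pass for CYP1A1 (-0.92 ± 0.28, adjusted p 0.0631) or TIPARP (-0.32 ± 0.11, adjusted p 0.145). For CYP1B1 that call was lost without Soshiho-tang high replicate 2 (-0.36, adjusted p 0.16) or Soshiho-tang low replicate 3 (-0.42, adjusted p 0.0754). The count of 1526 became 606 without Soshiho-tang high replicate 2, and 213 with the 2 libraries that stood apart in the fit.

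Of the 1526 genes called at the high dose, none was called at the low dose, where the libraries are others and 0.0165% of all genes were called, so that a count of 0 says little about these genes. An unadjusted p below 0.05 at the low dose was found for 5.38% of those higher and 6.46% of those lower at the high dose, against 4.29% of all genes. Their low-dose differences were small: the 706 genes higher at the high dose had a median of 0.20 there and 0.01 at the low dose, and 57.2% of them had the same sign at both doses, against 49.5% of all genes. The 820 lower genes had medians of -0.28 and -0.01 and 52.9% of the same sign, against 50.3% of all genes.

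**Figure D4:**
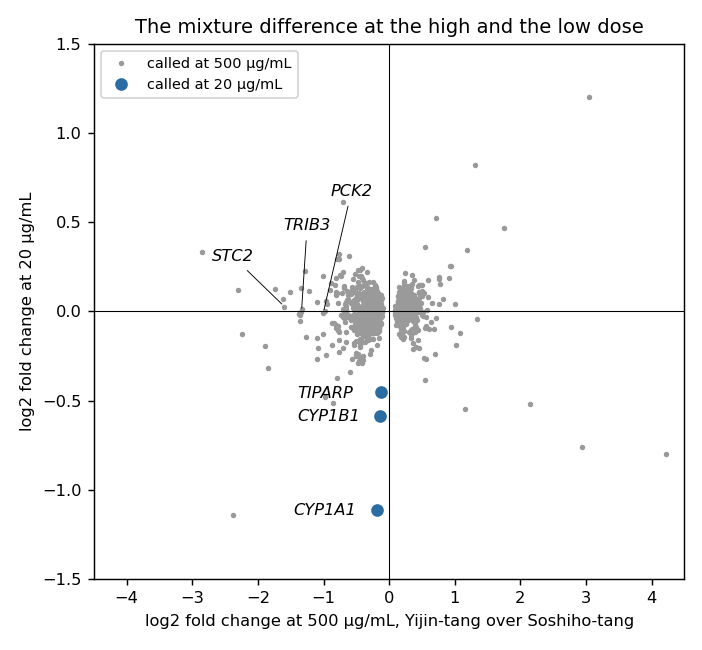
Log2 fold change of Yijin-tang over Soshiho-tang at 20 µg/mL (vertical axis) against that at 500 µg/mL (horizontal axis), for the 1526 genes called at the high dose (grey) and the 3 called at the low dose (blue). The grey points spread along the horizontal axis around 0 at the low dose, and the 3 AHR targets lie low on the vertical axis near 0 at the high dose.

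The test of the difference between doses called 471 genes (294 higher, 177 lower; 2.58%), and the first 5 by p were TRIB3, STC2, SMOX, ASNS and PCK2. The count became 51 with all 54 libraries in the fit, where SMOX was no longer called (adjusted p 0.446), 273 without Soshiho-tang high replicate 2 and 300 without Soshiho-tang low replicate 2. TRIB3, a pseudokinase induced by the transcription factor ATF4, had 60.1, 61.3 and 63.1 CPM with Yijin-tang low and 63.1 and 60.2 CPM with Soshiho-tang low. At the high dose it had 82.6, 77.7 and 75.3 CPM with Yijin-tang and 204 and 193 CPM with Soshiho-tang. The mixtures thus overlapped in TRIB3 at 20 µg/mL and were far apart at 500 µg/mL. STC2, a secreted glycoprotein of the stress response, differed by 0.03 ± 0.08 at the low dose and by -1.60 ± 0.07 at the high dose. PCK2, the mitochondrial PEP carboxykinase, differed by -0.01 ± 0.06 and -1.01 ± 0.06, and ASNS, asparagine synthetase, by 0.01 ± 0.04 and -0.66 ± 0.04. SMOX, which oxidises spermine, differed by 0.01 ± 0.04 and -0.66 ± 0.04.

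The gene lists are given beside the shares of all genes called, 0.0165% at the low dose and 8.37% at the high dose, so that a list without a low-dose call is what the share of all genes would give. Of 28 pathway lists other than the AHR targets, none had a member called at the low dose and 23 had at least 1 called at the high dose. At a share of 8.37% most lists of these sizes would hold at least 1 call, so neither count says much about the lists. Of 32 ATF4 integrated stress response genes, which act in amino acid supply and stress signalling, 30 were called lower in Yijin-tang at the high dose (median -0.53), with a median of 0.01 at the low dose. Of 19 heat shock genes, 17 were called higher at the high dose (median 0.32), with a median of 0.04 at the low dose. Of 25 cholesterol synthesis genes, 18 were called lower at the high dose (median -0.19) and none at the low dose (median -0.01). Of 30 mitosis genes, 18 were called higher at the high dose (median 0.18), with a median of -0.01 at the low dose. NRF2 targets, a further xenobiotic response, had a median of 0.00 over 28 genes at the low dose.

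**Figure D5:**
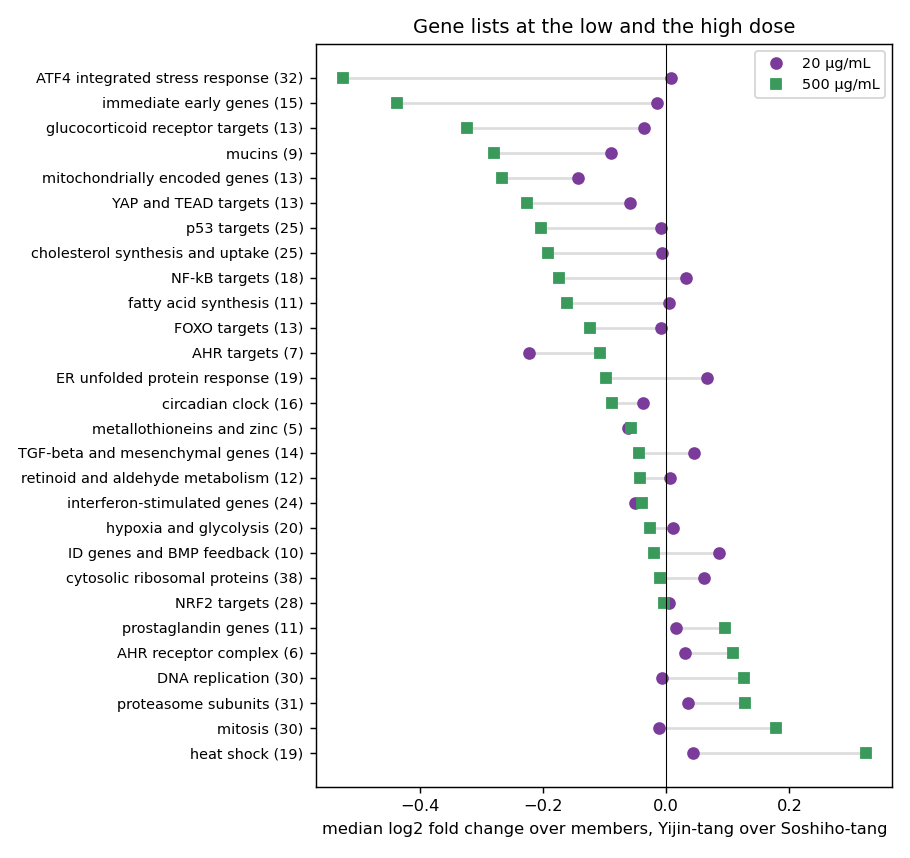
Median log2 fold change of Yijin-tang over Soshiho-tang over the tested members of each gene list (number in brackets), at 20 µg/mL (circles) and 500 µg/mL (squares). The circles lie between -0.14 and 0.09 except that of the AHR targets at -0.22, and the squares run from -0.53 for ATF4 genes to 0.32 for heat shock genes.

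Below the threshold, the genes nearest to a call are given as values. FOSL1, an AP-1 transcription factor, was the first after the 3 called genes among the lower ones, with 26.3, 26.8 and 27.7 CPM in Yijin-tang and 32.7 and 33.2 CPM in Soshiho-tang (log2 fold change -0.29 ± 0.07, edgeR adjusted p 0.644). Vehicle had 32.0, 30.5 and 35.0 CPM, a range that holds both Soshiho-tang values. FOSL1 was called lower in Yijin-tang low against vehicle (-0.27 ± 0.06, edgeR adjusted p 0.00608), a comparison that crosses sets. Low-dose means of the other 6 extracts ran from 26.2 CPM (Longan Arillus, with a library that stood apart) to 32.0 CPM (Aucklandiae Radix, 1 library). Liriopis Tuber, Schisandrae Fructus and Zizyphi Semen had 26.7, 28.2 and 28.6 CPM. A mean under that of vehicle was thus not particular to Yijin-tang. At the high dose the FOSL1 difference was -0.41 ± 0.07 (edgeR adjusted p 2.76e-05). There Yijin-tang had 30.6, 30.0 and 31.8 CPM, near the vehicle range, and Soshiho-tang 42.7 and 39.0 CPM, above every vehicle library. TRAM2, a translocon-associated protein used in collagen synthesis, differed by -0.17 ± 0.04 (adjusted p 0.668), and BTBD16 had at most 1.15 CPM in each of the 5 libraries.

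Among the higher ones, ST3GAL5, the GM3 ganglioside synthase, had 72.3, 76.0 and 78.2 CPM in Yijin-tang and 67.5 CPM in each Soshiho-tang library (0.16 ± 0.04, adjusted p 0.889). NR4A1, an immediate early nuclear receptor, had 35.2, 38.8 and 35.8 CPM in Yijin-tang and 31.9 and 31.1 CPM in Soshiho-tang (0.22 ± 0.06, adjusted p 0.889), without overlap. At the high dose its difference had the opposite sign, -0.71 ± 0.06 (adjusted p 4.8e-12). HGD, an enzyme of tyrosine breakdown, differed by 0.22 ± 0.06 at the low dose. MRPL33, a mitochondrial ribosomal protein, differed by 0.27 ± 0.08, and KDM4A, a histone demethylase, by 0.16 ± 0.05. MRPL33 overlaps BABAM2 on the same strand, at 43.7 to 50.8 CPM in the 5 low-dose libraries (without TMM scaling), so its count is uncertain. ENSG00000270149, a protein-coding gene that overlaps F11R on the same strand and whose count is therefore uncertain, had 6.83, 6.94 and 7.34 CPM in Yijin-tang and 1.69 and 2.89 CPM in Soshiho-tang (1.61 ± 0.45, adjusted p 1). It was called when only set 8 (adjusted p 0.000146) or only the 5 low-dose libraries (adjusted p 7.9e-05) were fitted.

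Differences spread over many genes were slight. Of 38 cytosolic ribosomal protein genes, 9 had an unadjusted p below 0.05, all higher in Yijin-tang (median of the list 0.06), and of 19 genes of the endoplasmic reticulum unfolded protein response 6 did, all higher (median 0.07), against 4.29% of all genes in either direction (427 of 18228 higher), while no member of either list was called. Mitochondrially encoded genes had a median of -0.14 over 13 genes, beside the lower mitochondrial share of Yijin-tang libraries. The low-dose difference also moved with transcript length, by -0.02 log2 units per doubling, with medians of 0.02 in the shortest and -0.02 in the longest of 4 equal length classes. The part of length and of the mitochondrial share in these list medians was not tested.

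In the fit of 52 libraries, small differences could be bounded for genes with enough counts. The intervals rest on a spread estimated over these libraries, without the 2 that stood apart. With all 54 libraries, 269 genes had an unadjusted p below 0.05 by edgeR at the low dose, against 782 in the main fit. Of 9464 genes with a mean of at least 10 CPM, 9413 (99.5%) had a 95% interval of the low-dose difference wholly within 1.5-fold in either direction, and 2 were called. Of 4321 genes from 1 to 10 CPM, 67.6% did. Of 4443 genes under 1 CPM, 0.18% did, so differences of that size were not detectable at this depth for most of them.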

How the data were processed

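RNA from A549 cells was sequenced as 100 bp read pairs from directional mRNA libraries on an MGI instrument, per the labels' protocols. Tools in the submitters' processing notes are STAR 2.7.3a and RSEM 1.3.3, with FastQC 0.11.9 and Trim Galore 0.6.5, on hg38 (GRCh38). Neither an annotation release nor a strand setting is given in the sources used here. What the authors deposited are expected counts per gene for 60 libraries, with no scaling for depth or length, of which 10.5% were not whole. RSEM shares reads between near-identical copies.

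Expected counts were rounded. The 52 libraries of 19 replicated groups were fitted together, without the 2 libraries that stood apart, with edgeR 4.0.16 in R 4.3.3 (quasi-likelihood F test, robust, TMM, filterByExpr by group). The 18228 genes that passed were adjusted by Benjamini-Hochberg and called below 0.05, and adjusted p are from this fit unless DESeq2 1.42.0 is named. Totals were 18.0 to 33.8 M counts per library, which leaves genes under 1 CPM imprecise. Replicates of both groups differed beyond counting noise, with a chi-square of 2.12 or more per degree of freedom. The fit was tested on simulated data.

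Named genes were called genes with at least 1 CPM, all measured AHR targets and, where under 5 genes were called in a direction, the first 8 by p, of which at most 2 without a symbol are printed; plus the first 5 of the test between doses. AHR complex genes were also named; the result of 1 listed gene is not reported here. The libraries compared, the gene lists and the tests were chosen with earlier results of these data known. Alternatives were all 54 libraries, set 8 alone, the 5 libraries alone, a replicate block, DESeq2, its size factors, no filter, no mitochondrial genes, and each compared library left out. Coordinates are from GENCODE 29.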

Additional observations from a re-analysis of the deposited data

Results flagged for a closer look

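The difference between the mixtures was itself different at the 2 doses in 471 genes (2.58% of genes tested) by edgeR's test of that difference. Of the genes named above, 11 were called in it, a count that follows in part from how they were named. TRIB3, STC2, SMOX, ASNS and PCK2 were named as the first of this test by p, and others by their low-dose p. Given as the low-dose log2 difference (Yijin-tang minus Soshiho-tang) less the high-dose one, CYP1B1 had -0.452, its mixtures being farther apart at 20 µg/mL. TRIB3 had 1.335, STC2 1.624, SMOX 0.669, ASNS 0.677 and PCK2 0.996, their mixtures being farther apart at 500 µg/mL. The chaperone genes HSP90AA1 and HSP90AB1 had -0.396 and -0.266, their mixtures being farther apart at 500 µg/mL, with Yijin-tang higher. NR4A1 had 0.927, KDM4A 0.409 and HGD 0.318, each with a difference above 0 at the low dose and below 0 at the high dose. The count was 51 with all 54 libraries, where SMOX and CYP1B1 were no longer called, and 273 to 441 without 1 library.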

How the results depend on the processing

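CYP1B1 was called lower in Yijin-tang in all 13 alternatives to its low-dose comparison, from -0.618 to -0.552 without 1 library and -0.585 to -0.556 otherwise. The low-dose comparison gave 1 call with all 54 libraries (CYP1B1), 6 with the 5 low-dose libraries alone (CYP1B1 and TIPARP, and ENSG00000270149, ENSG00000262621, MTATP6P1 and CHURC1-FNTB, which are not on the AHR list), and 89 with no filter on low counts, of which the 3 main genes were part and 26 had under 1 CPM in both groups or had not passed the filter. Set 8 alone gave 4, CYP1B1, TIPARP, ENSG00000270149 and CHURC1-FNTB. MTATP6P1 and CHURC1-FNTB were named after their values were seen, and as a pseudogene and a readthrough gene share reads with other genes. The comparison gave 1 to 2 calls without 1 library and 2 with DESeq2. The replicate numbers were not taken as pairing (2 pairs, correlations of 0.08 and 0.02): with the replicate block, set 8 alone gave 4 calls at the low dose, 1511 at the high dose and 493 between doses, and a CYP1B1 difference of -0.556. TIPARP lost its low-dose call with all 54 libraries (adjusted p 1), and CYP1A1 with 54 (0.0584), set 8 (0.0923) or 5 libraries (0.0525) and with the block (0.0747). Between doses, CYP1B1 (0.172) and SMOX (0.446) lost their calls with 54 libraries. TIPARP gained one with set 8 alone (0.0212), the block (0.0173) or no filter (0.0211), and CYP1A1 without Yijin-tang high replicate 1 (0.0467) or Soshiho-tang high replicate 3 (0.0118). With all 54 libraries the other counts were 213 (high dose), 26 and 8 (Yijin-tang and Soshiho-tang low against vehicle) and 51 (between doses). Without 1 library they ranged over 606 to 1258, 319 to 424, 124 to 427 and 273 to 441. The 2 comparisons added later gave 16 and 1 calls with all 54 libraries and 1 each with DESeq2. Signs turned only in low-dose differences near 0. Without 1 library, NQO1 ranged from -0.0156 to 0.0317, AHR from -0.0218 to 0.0231, HSP90AB1 from -0.00339 to 0.0622, STC2 from -0.0884 to 0.149, SMOX from -0.0185 to 0.039, ASNS from -0.0194 to 0.0374, PCK2 from -0.0526 to 0.0619 and TRIB3 from -0.0358 to 0.0319, and TRIB3 was also above 0 with set 8 alone (0.000191), no filter (0.005) and no mitochondrial genes (0.000763). The cause of these changes was not tested.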
